A study of Zea mays with 2 samples.

Results

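Isoprenoid, carotenoid and terpene synthesis genes were followed in maize leaf with and without a seaweed extract. The group was taken from the gene descriptions deposited with the expression values, by words such as terpene, phytoene, carotene, lycopene, zeaxanthin, isopentenyl, deoxyxylulose, dehydrodolichyl, farnesyl and hydroxymethylglutaryl. Of 39634 genes listed in each library, 133 were members. The terpene synthase gene tps1 (GRMZM2G049538) belongs only by its identifier, because its description, geranyl diphosphate diphosphatase, holds none of these words. GRMZM2G105644, a geranylgeranyl diphosphate reductase of chlorophyll and tocopherol synthesis, matches the wording but was left out by identifier. By role, 10 members were placed in the mevalonate pathway, 7 in the plastid methylerythritol phosphate (MEP) pathway, 17 in the synthesis of prenyl diphosphates, 14 among terpene synthases, 13 in carotene formation, 16 in xanthophyll synthesis, 17 in carotenoid cleavage, 11 in protein prenylation and 9 among isopentenyltransferases of cytokinin or tRNA. The other 19 belong to families that share only the wording.

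Leaf RNA came from maize of the strain Sugar 75 at stage V5, in a series on drought. The control library came from plants without the extract and the treated library from plants given it, and both are pools of 3 independent samples, run with 2 technical replicates. Whether both pools were under drought, and how the extract was dosed, is not stated by the labels. With 1 library in each group there is no replicate check and no test, so each difference is one between 2 libraries.

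Plants make isoprenoid precursors along separate routes, the mevalonate pathway in the cytosol and the MEP pathway in the plastid. Both end in isopentenyl diphosphate, which prenyltransferases join into chains of growing length. In leaves the chains feed carotenoids, which collect light and protect the photosystems, the side chains of chlorophyll and quinones, dolichols for protein glycosylation, hormones, and volatile or defensive terpenes. Cleavage of carotenoids yields abscisic acid, strigolactones and aroma compounds.

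Levels are FPKM (fragments by gene length and library size), a unit per length, so they can be compared between genes. The range after each level is the deposited interval, which covers quantification error within 1 library but no spread among plants. Ratios are log2((treated + 1)/(control + 1)), a scale that understates the difference of low genes, and they are given for genes that reached 1 FPKM in either library. Of the 133 members, 59 reached that minimum, 26 reached 10 FPKM, and 36 were listed at 0 in both libraries. The median ratio of all 16272 genes at the minimum was 0.22, so a member near that value held its place among all genes. In bulk leaf RNA, fewer cells of a type and less RNA per cell cannot be told apart.

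Fragment numbers implied by the intervals had a median of 150.0 per member without the extract and 167 with it, and the FPKM worth of 1 fragment was 1.25 times larger in the treated one, the shallower of the pair. All 4 leaf markers read beside the members were lower in the treated library, and none was at 0. The mesophyll gene pep1 stood at 1747 and 1262 FPKM, and the bundle sheath genes ssu1, me3 and RCA1 summed to 1592 and 882 FPKM. The part of these marker levels in the ratios of the members was not tested.

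Most isoprenoid genes stood at like levels in both libraries, and a few stood far apart. A ratio of at least 1 was found for 5 of the 59 members, against 3.71% of all genes, and a ratio of at most -1 for 1 member, against 2.52%. The 5 were GRMZM2G054803 (dehydrodolichyl diphosphate synthase-related), tps1, the terpene synthases tps6 and AC214360.3_FG001, and GRMZM2G346095. The 1 was the carotenoid dioxygenase GRMZM2G150363. Of the 5, the 3 genes tps6, AC214360.3_FG001 and GRMZM2G346095 reached the minimum only through the treated library and so had to be higher there. Over all 59 members, 4 reached it only through the treated library and 3 only through the control. Without GRMZM2G054803 and tps1, which the rule names by identifier, 3 of 57 members had a ratio of at least 1. The omitted reductase GRMZM2G105644 stood at 141 FPKM (137 to 145) and 47.3 (44.8 to 49.9), a ratio of -1.55 with intervals apart, and with it 2 of 60 genes would lie at -1 or below. The median member ratio was 0.29, with quartiles of -0.00 and 0.51, beside quartiles of -0.04 and 0.46 over all genes. Of the 59 members, 32 lay above the median of all genes, where 50.0% of genes lie by construction. Within 0.5 of that median lay 41 members, beside 77.5% of all genes. Intervals did not overlap for 24 members that were higher and 6 that were lower in the treated library, beside 28.6% and 8.76% of all genes. These shares vary with level. At 10 FPKM or more they were 50.0% and 19.2% of members, beside 51.9% and 16.6% of all genes.

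**Figure D1:**
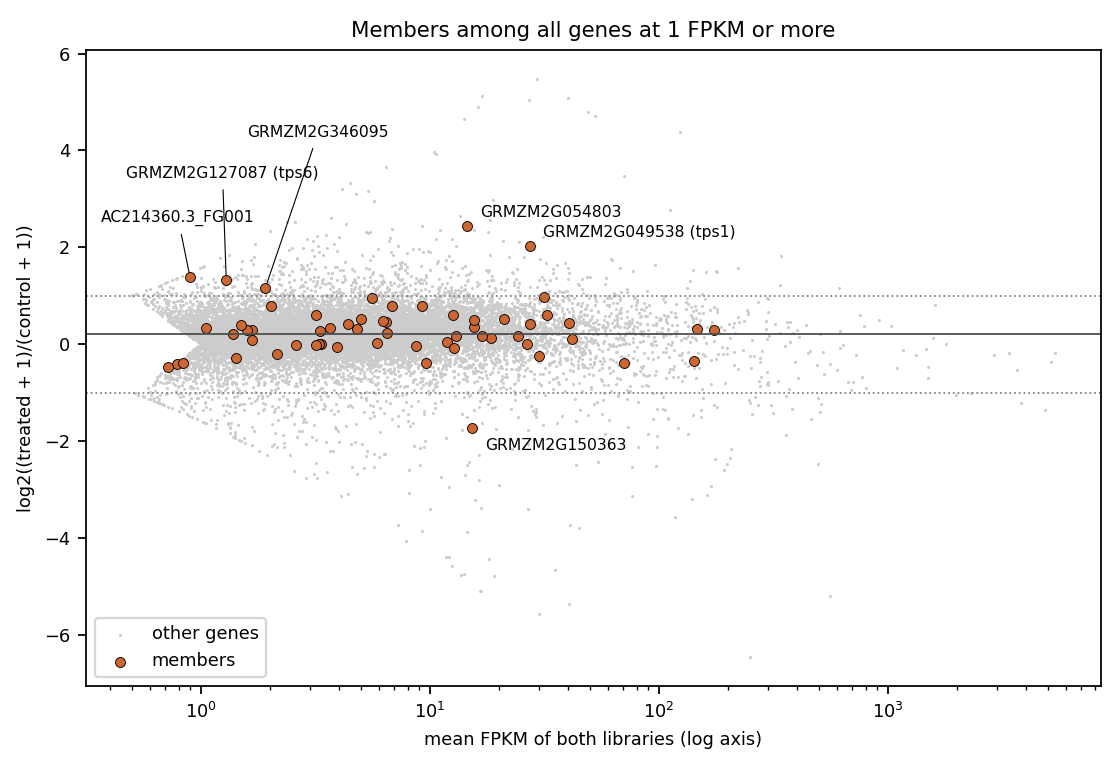
Log2 ratio of each gene at 1 FPKM or more (vertical axis) against its mean FPKM in both libraries (horizontal log axis), with the isoprenoid genes as filled points and the other genes in grey. The solid line is the median of all genes, 0.22, the dotted lines are ratios of 1 and -1, and the 6 named points are the members beyond them.

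The mevalonate genes were low and stood on both sides of 0. The pathway's entry enzymes are HMG-CoA synthase and HMG-CoA reductase, the latter the main control point of the route. The HMG-CoA synthase AC199782.5_FG002 stood at 4.79 FPKM (4.01 to 5.57) without the extract and 8.95 (7.76 to 10.1) with it, a ratio of 0.78 with intervals apart. The reductase GRMZM2G001645 stood at 4.17 (3.41 to 4.94) and 5.42 (4.57 to 6.27), with overlapping intervals and a ratio of 0.31. The 4 mevalonate members at the minimum had ratios from -0.40 to 0.78, with a median of 0.06, and none passed 1 in either direction. The lowest ratio was that of GRMZM2G058095, which reached the minimum only through the control library and so had to be lower in the treated one. The other ratio below 0, -0.20 for GRMZM2G087207, came with overlapping intervals.

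The MEP pathway, the plastid source of carotenoid precursors, stood at nearly the same level in both libraries. DXP (deoxyxylulose phosphate) synthase, the first and rate-controlling enzyme, is encoded mainly by GRMZM2G137151, which stood at 32.4 FPKM (30.4 to 34.5) in the control against 27.3 (25.3 to 29.2) in the treated library. Its intervals were apart, with a ratio of -0.24. DXP reductoisomerase, the next enzyme, is encoded mainly by GRMZM2G056975, at 40.1 (37.6 to 42.5) and 43.1 (40.3 to 45.9). Its intervals overlapped, and its ratio of 0.10 lay below the median of all genes. The 5 members at the minimum had a median ratio of -0.24, and none passed 1 in either direction. One of them, GRMZM2G493395, reached the minimum only through the control library and stood at 0.44 FPKM in the treated one.

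The wording of the membership rule reaches only the first 2 of the 7 MEP steps, so the later steps were read beside them. Over all 7 steps, 12 of 14 genes reached the minimum, with ratios from -0.51 to 0.52 and a median of 0.08. None passed 1 in either direction, and 3 of the 12 lay above the median of all genes. Summed by step, DXP synthase stood at 39.4 and 34.8 FPKM, the reductoisomerase at 41.9 and 44.3, the cytidylyl transferase at 10.4 and 9.41, and the kinase at 18.8 and 19.0. The closing steps stood at 13.5 and 18.6 FPKM for the cyclodiphosphate synthase, 50.7 and 54.0 for the synthase of hydroxymethylbutenyl diphosphate (HMBPP), and 33.5 and 38.7 for HMBPP reductase. The cyclodiphosphate synthase step had the ratio of sums farthest from 0, at 0.43. Its gene GRMZM5G835542 stood at 7.56 (6.24 to 8.88) and 11.3 (9.46 to 13.1), with intervals apart. The reductase gene HDR (GRMZM2G027059) stood at 33.5 (31.8 to 35.2) and 38.7 (36.6 to 40.7), also with intervals apart.

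**Figure D2:**
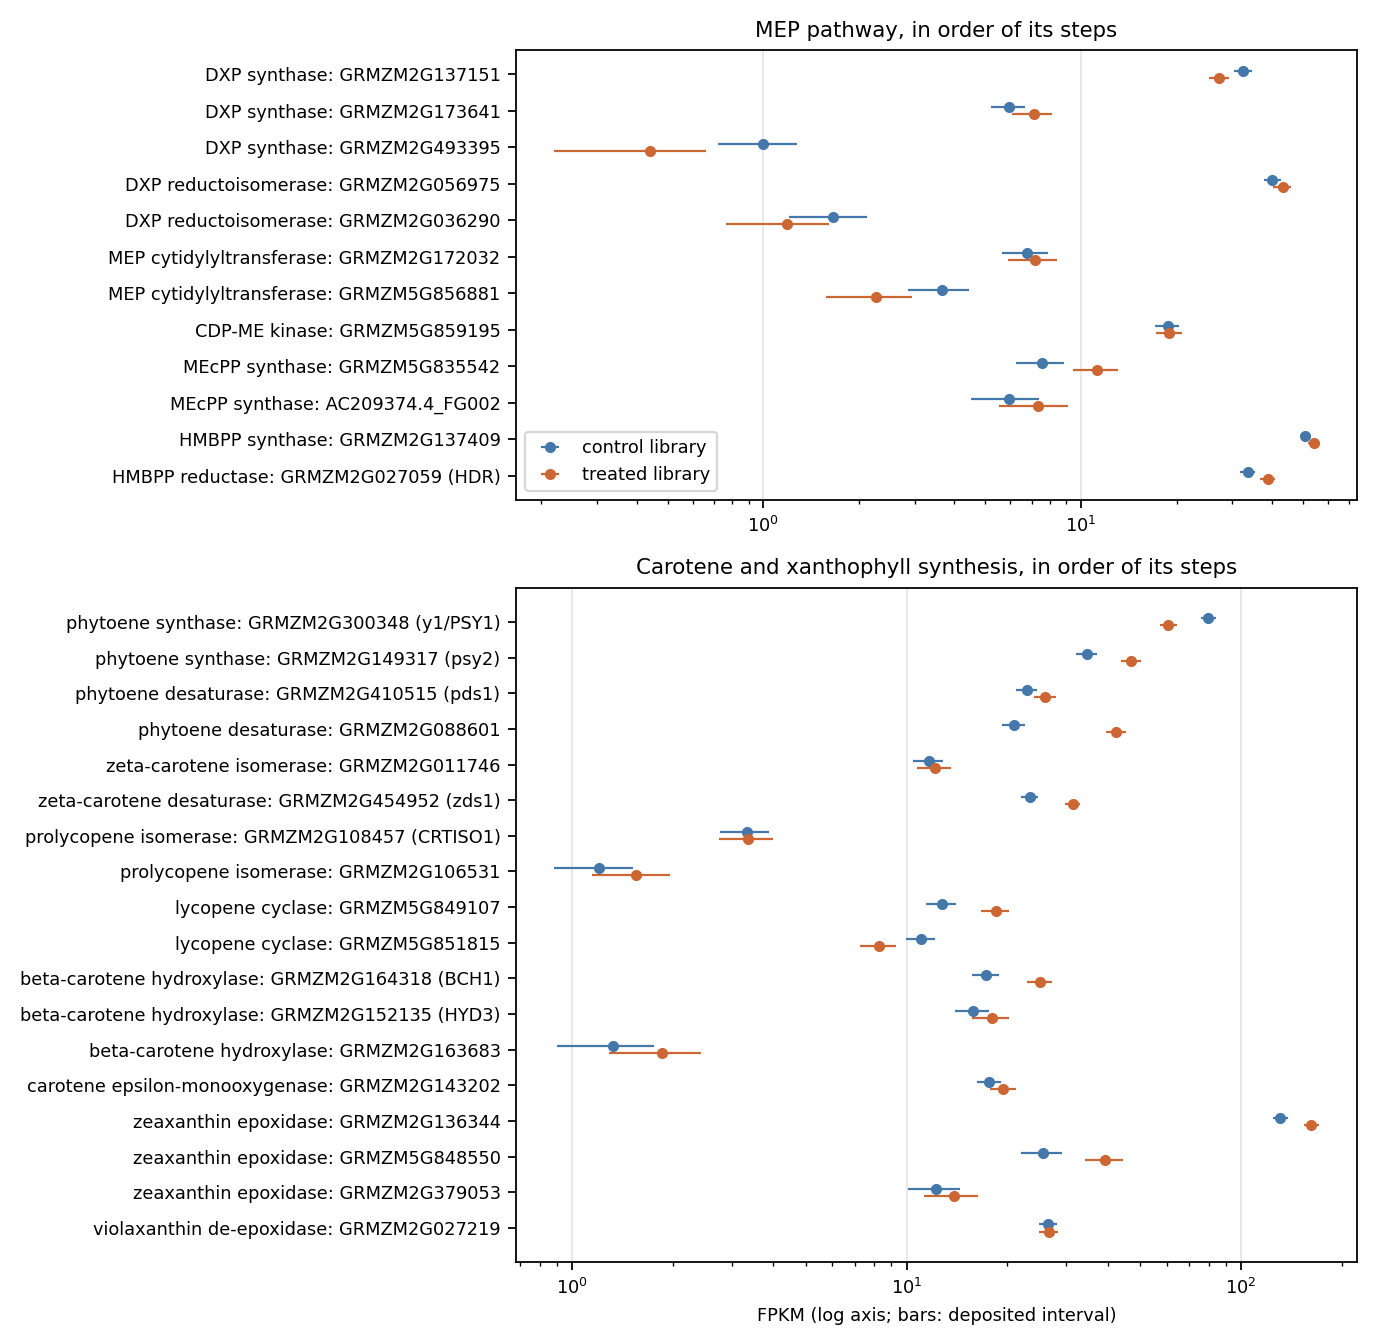
FPKM (log axes) of genes of the MEP pathway (top) and of carotene and xanthophyll synthesis (bottom), in the order of the steps, with the control library in blue, the treated library in orange and the deposited intervals as bars. The MEP genes have ratios between -0.51 and 0.52, and among the carotenoid genes the phytoene synthases y1 and psy2 differ in opposite directions.

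Among genes that build prenyl diphosphates, a gene described as related to dehydrodolichyl diphosphate synthase stood apart. That synthase, of the cis-prenyltransferase family, makes the long chain of dolichol, the lipid that carries sugars for protein glycosylation. GRMZM2G054803 (chr7:45384707-45386649, in a genome build the sources do not name) stood at 3.83 FPKM (3.14 to 4.51) without the extract and 25.2 (23.3 to 27.2) with it. The treated level was 6.60-fold that of the control, or between 5.15-fold and 8.67-fold when the interval bounds are set against each other, and the ratio of 2.44 ranked 28 from the top of the 16272 genes. For GRMZM2G054803, as for all genes, this ratio adds 1 FPKM to each level. The authors' fold change was computed separately and is not on its scale, so nearness to the ratio of GRMZM2G054803 is no check. In the authors' deposited table its log2 fold change was 2.45 with a p-value of 5e-05 and a q-value of 0.00995, and it was the only member marked there as significant.

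A second gene with the same description, GRMZM2G146437, was chosen for mention after its values were seen. It stood at 3.48 (2.75 to 4.21) and 7.69 (6.49 to 8.90), with intervals apart and a ratio of 0.96. Both genes were thus at about equal levels in the control library, with 50.3% and 45.7% of the summed FPKM under this description. In the treated library GRMZM2G054803 held 76.4% and GRMZM2G146437 held 23.3% of a sum that was 7.61 FPKM in the control against 33.0 in the treated library. The third gene of this description was below 1 FPKM in both. The 2 genes described as farnesyl-diphosphate specific polycis-polyprenyl diphosphate synthases list the same protein domain. They summed to 7.64 and 8.98 FPKM, with ratios of -0.06 and 0.41. The sums and shares belong to the descriptions, and which of these genes make the dolichol chain was not tested.

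The isopentenyl diphosphate isomerases, which balance the branched precursors before chain growth, were 5 genes with a summed level of 33.7 and 41.5 FPKM. GRMZM2G108285 stood at 13.6 (12.0 to 15.1) and 17.7 (15.7 to 19.6), with a ratio of 0.36 and intervals apart. GRMZM2G032163 stood at 13.1 (11.7 to 14.5) and 12.4 (10.9 to 13.9), with overlapping intervals and a ratio of -0.08. The near-equal pair of the control library was therefore ordered in the treated one. Farnesyl and geranylgeranyl diphosphate synthases, which make the chains for sterols, sesquiterpenes and carotenoids, had 2 of 7 genes at the minimum, and their ratios were 0.34 and 0.45. Over all 11 prenyl diphosphate members at the minimum the median ratio was 0.41. Of them 9 lay above the median of all genes, where 50.0% of genes lie, and 1 passed 1, beside 3.71% of all genes. The 1 was GRMZM2G054803, which the rule names by identifier. Among the 9, GRMZM2G017868 reached the minimum only through the treated library.

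Terpene synthases turn prenyl diphosphates into volatile and defensive terpenes, and 3 of the 14 reached the minimum, each with a ratio above 1. Over all genes 3.71% had such a ratio. However, tps6 and AC214360.3_FG001 reached the minimum only through the treated library and so had to be higher there, and tps1 belongs by identifier only. The 3 genes are therefore no measure of the family's direction. The gene tps1 (chr2:10596547-10605493), described in maize as a sesquiterpene synthase, stood at 10.2 FPKM (9.10 to 11.2) without the extract and 44.6 (41.9 to 47.3) with it. The treated level was 4.39-fold that of the control, or between 3.74-fold and 5.19-fold by the interval bounds, and the ratio of 2.03 ranked 53 from the top. The authors' deposited table gave it a log2 fold change of 1.89, a p-value of 0.00145 and a q-value of 0.134, not marked as significant.

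The other terpene synthases were low. The gene tps6 (GRMZM2G127087, chr10:55603291-55756434), whose product in maize makes the precursor of the zealexin phytoalexins, stood at 0.31 FPKM (0.13 to 0.49) in the control against 2.28 (1.75 to 2.80) in the treated library. These values rest on 11.7 and 74.9 implied fragments, and the treated level was 7.36-fold that of the control, with bounds of 3.57-fold and 21.8-fold. The authors' deposited table gave tps6 a log2 fold change of 2.67, a p-value of 0.0118 and a q-value of 0.507.

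AC214360.3_FG001 (chr3:110185329-110189107), a gene with the terpene synthase domains and no given product, stood at 0.0483 FPKM (0 to 0.104) and 1.75 (1.37 to 2.12). Its control value rests on 3 implied fragments, so no fold is given, and its ratio was 1.39. The remaining 11 terpene synthases had at most 0.51 FPKM in either library, and 6 of them were listed at 0 in both. Summed over all 14, the level was 10.9 and 49.2 FPKM, of which tps1 held 93.6% and 90.7%. Whether fragments shared by closely related copies were split between them is not stated, so single copies of a family are uncertain to that extent.

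**Figure D3:**
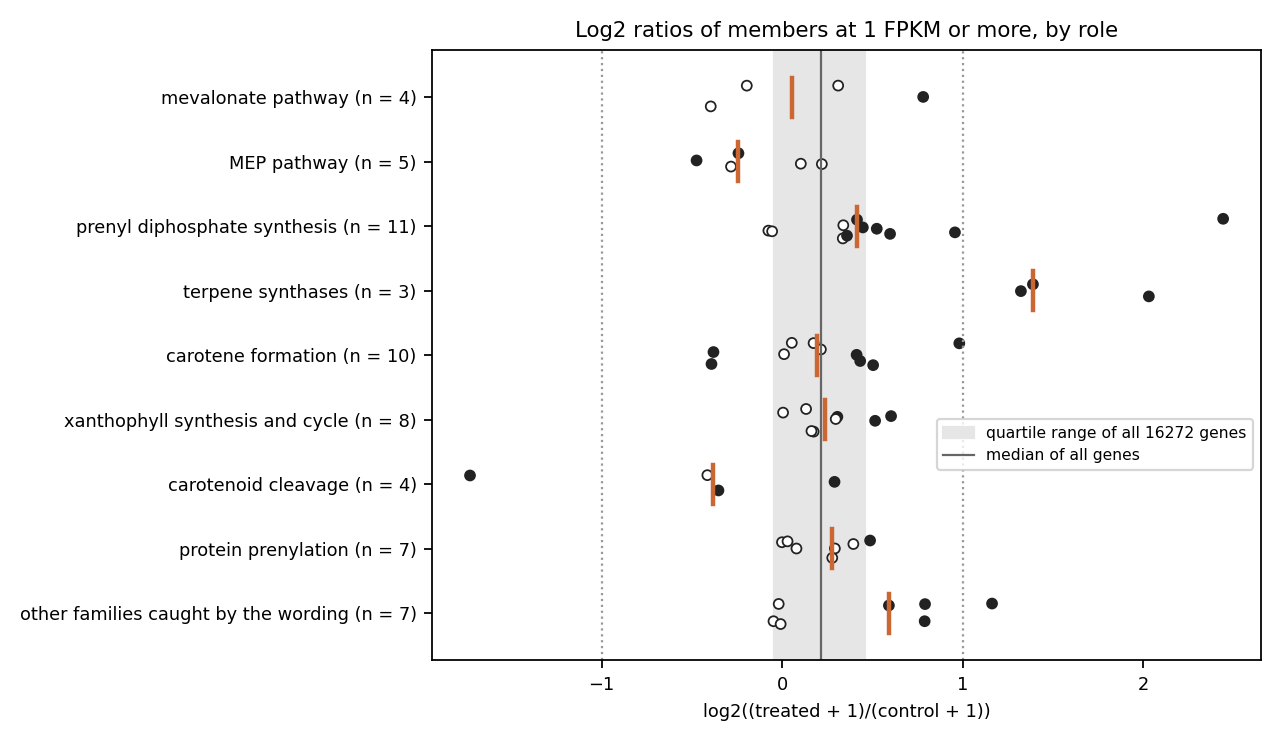
Log2 ratio of each member at 1 FPKM or more, by role, filled where the deposited intervals do not overlap and open where they do, with the role's median as an orange bar, the quartile range of all genes in grey and the median of all genes as a line. The 3 terpene synthases lie above 1, though tps6 and AC214360.3_FG001 reached the minimum only through the treated library. The 8 xanthophyll genes lie between 0.01 and 0.60.

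Summed levels differed little at most steps of carotene formation, while single genes differed more. Phytoene synthase, the entry enzyme and main control of flux, is encoded by 2 genes at the minimum. The gene y1 (GRMZM2G300348), known as PSY1 and for the yellow kernel, stood at 79.8 FPKM (75.7 to 84.0) without the extract and 60.6 (57.2 to 64.1) with it. The gene psy2 (GRMZM2G149317) stood at 34.5 (32.1 to 37.0) and 46.9 (43.7 to 50.1). The pair thus differed in opposite directions, with ratios of -0.39 and 0.43 and intervals apart for both. The step's summed FPKM was 115 and 108, and the share of y1 was 69.6% and 56.2%.

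Phytoene desaturation was the carotene step whose summed FPKM differed most, at 43.8 and 68.3. The gene pds1 (GRMZM2G410515), the plant-type phytoene desaturase, stood at 22.9 (21.2 to 24.5) and 25.9 (24.0 to 27.9), with overlapping intervals and a ratio of 0.17. GRMZM2G088601, described as a zeta-carotene-forming phytoene desaturase, stood at 20.9 (19.3 to 22.6) and 42.3 (39.5 to 45.1). Its treated level was 2.02-fold that of the control, and its ratio of 0.98 lay just under the threshold of 1. The larger share of the step was with pds1 in the control, at 52.2%, and with GRMZM2G088601 in the treated library, at 62.0%. The sum and shares belong to the descriptions, and whether GRMZM2G088601 serves this step was not tested.

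The following steps differed less. The zeta-carotene isomerase GRMZM2G011746 stood at 11.7 (10.4 to 12.9) and 12.1 (10.7 to 13.5), with overlapping intervals. The desaturase zds1 (GRMZM2G454952), which completes the conjugated chain toward lycopene, stood at 23.3 (22.0 to 24.6) and 31.4 (29.7 to 33.1), with intervals apart and a ratio of 0.41. The prolycopene isomerases, which straighten the chain, summed to 4.53 and 4.92 FPKM, the lowest level of any carotene step.

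Lycopene cyclases close the end rings and set the branch between the beta and epsilon series. GRMZM5G849107, described as lycopene beta cyclase, stood at 12.7 (11.4 to 14.0) and 18.5 (16.7 to 20.3), a ratio of 0.50. GRMZM5G851815, described as a lycopene beta/epsilon cyclase protein, stood at 11.1 (9.97 to 12.2) and 8.27 (7.25 to 9.29), a ratio of -0.38. Both pairs of intervals were apart, and the directions were opposite, as in the phytoene synthases. GRMZM5G849107 held 53.1% of the step in the control against 69.1% in the treated library. Of the 10 carotene members at the minimum none passed 1 in either direction, and their median ratio was 0.19.

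**Figure D4:**
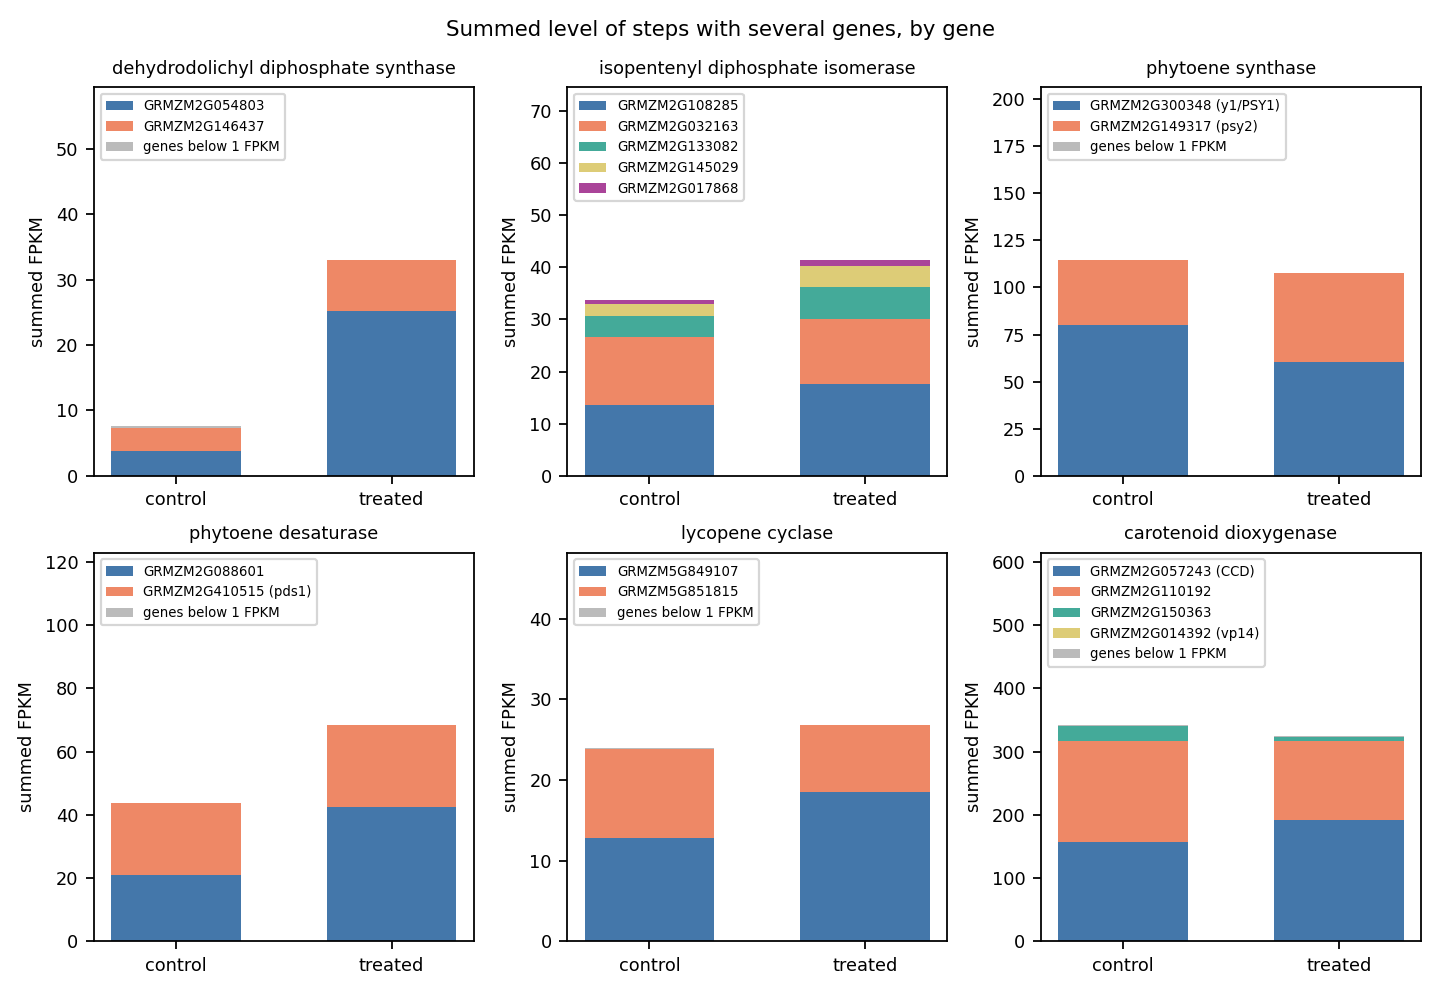
Summed FPKM (linear axes from 0) of 6 steps with several genes in the control and treated library, with each bar divided by gene and genes below 1 FPKM in grey. The bars under the dehydrodolichyl diphosphate synthase description reach 7.61 and 33.0 FPKM, whereas the phytoene synthase bars reach 115 and 108 with different shares of y1 and psy2.

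Xanthophyll genes lay close to the median of all genes, and each of the 8 at the minimum was within 0.5 of it. The beta-carotene hydroxylase BCH1 (GRMZM2G164318), which makes zeaxanthin, stood at 17.3 FPKM (15.7 to 18.8) without the extract and 25.1 (22.9 to 27.3) with it, with intervals apart and a ratio of 0.52. Its relative HYD3 (GRMZM2G152135) stood at 15.8 (14.0 to 17.7) and 18.0 (15.7 to 20.3), with overlapping intervals. GRMZM2G143202, described as the carotene epsilon-monooxygenase of lutein synthesis, stood at 17.7 (16.2 to 19.2) and 19.5 (17.8 to 21.2), again overlapping.

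The xanthophyll cycle interconverts zeaxanthin and violaxanthin as light changes. Violaxanthin de-epoxidase (GRMZM2G027219), the enzyme of high light, stood at 26.5 (24.9 to 28.1) and 26.6 (24.8 to 28.4), a ratio of 0.01. In the opposite direction of the cycle, 3 genes at the minimum carried the name zeaxanthin epoxidase. GRMZM2G136344 stood at 130.9 (124 to 138) and 162 (154 to 170.5), with intervals apart and a ratio of 0.31, and its only listed protein domain is the forkhead-associated domain.

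GRMZM5G848550, a model of 589 bases that lies 29.0 kb from GRMZM2G136344, stood at 25.5 (21.9 to 29.1) and 39.3 (34.2 to 44.3), with intervals apart and a ratio of 0.60. GRMZM2G379053 stood at 12.3 (10.1 to 14.5) and 13.8 (11.3 to 16.4), with overlapping intervals. Neither GRMZM5G848550 nor GRMZM2G379053 has a listed protein domain. The summed level under this name was 169 and 215 FPKM, of which GRMZM2G136344 held 77.5% and 75.3%. The sum belongs to the name, and whether these models encode the epoxidase was not tested. The median ratio of the 8 xanthophyll members, which include the genes under this name, was 0.24, and none passed 1.

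Carotenoid cleavage held the highest member of the group in each library and the only one with a ratio below -1. Cleavage dioxygenases cut carotenoids to apocarotenoids, among them the precursors of abscisic acid and of aroma compounds. GRMZM2G150363, described as zeaxanthin 7,8-dioxygenase, stood at 24.0 FPKM (22.6 to 25.4) in the control against 6.54 (5.70 to 7.39) in the treated library. It was 3.67-fold lower in the treated library, and its ratio of -1.73 ranked 126 from the bottom of the 16272 genes. The authors' deposited table gave it a log2 fold change of -2.18, a p-value of 0.0005 and a q-value of 0.0657, not marked as significant.

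The 2 highest dioxygenases differed in opposite directions in FPKM. GRMZM2G110192, described both as 9-cis-epoxycarotenoid dioxygenase and as zeaxanthin dioxygenase, stood at 159 (156 to 163) and 125 (121 to 128). The gene CCD (GRMZM2G057243), described as the carotenoid 9,10-cleavage dioxygenase, stood at 157 (149 to 164) and 192 (183 to 201). Their intervals overlapped each other in the control and were apart in the treated library, where CCD led. The ratios were -0.35 and 0.29, and CCD held 45.9% of the summed dioxygenase FPKM without the extract and 59.2% with it. After subtraction of the median of all genes the ratios were -0.57 and 0.07, so CCD held its place among all genes.

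Summed over the 15 dioxygenases the level was 342 and 324 FPKM. The gene vp14 (GRMZM2G014392), the maize dioxygenase known for abscisic acid synthesis, was chosen for mention after its values were seen. It stood at 1.04 (0.76 to 1.32) and 0.53 (0.30 to 0.76), with intervals that just overlapped. The remaining 11 dioxygenases had at most 0.51 FPKM in either library. Both genes named for the carotene isomerase D27 of strigolactone synthesis were below 1 FPKM. Of the 4 cleavage members at the minimum, 3 had ratios below 0, among them vp14, which reached the minimum only through the control library, and the median was -0.38.

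Protein prenylation, the attachment of farnesyl or geranylgeranyl chains to proteins such as small GTPases, stood at like levels in both libraries. The farnesyltransferase beta subunit GRMZM2G158562 stood at 5.06 FPKM (4.33 to 5.79) in the control against 7.50 (6.52 to 8.47) in the treated library, with intervals apart and a ratio of 0.49. GRMZM2G703303, described as a farnesyltransferase and geranylgeranyl transferase subunit, stood at 5.84 (4.59 to 7.09) and 5.98 (4.58 to 7.39), with overlapping intervals. The 7 members at the minimum had a median ratio of 0.28, none passed 1, and 6 had overlapping intervals. The 9 isopentenyltransferases of cytokinin or tRNA were all below 1 FPKM in both libraries, with a summed level of 0.50 and 0.94 FPKM.

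The 19 members outside the named roles held 1 ratio above 1. GRMZM2G346095, which carries the name of HMG-CoA synthase but chalcone synthase domains, stood at 0.80 FPKM (0.48 to 1.120) without the extract and 3.03 (2.33 to 3.73) with it. Its ratio was 1.16, and after subtraction of the median of all genes it was 0.95 and no longer passed 1. The authors' deposited table gave it a log2 fold change of 1.65, a p-value of 0.0374 and a q-value of 0.831. The HMG-CoA lyase GRMZM2G095141, which degrades the mevalonate precursor in leucine breakdown, stood at 9.89 (8.89 to 10.9) and 15.4 (14.0 to 16.8), a ratio of 0.59. The peroxisome biogenesis protein of the farnesylated type GRMZM2G004768 stood at 6.51 (5.45 to 7.57) and 12.0 (10.4 to 13.6), a ratio of 0.79. Both had intervals apart.

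With the median of all genes subtracted, 4 members passed 1 and 1 passed -1, beside 2.01% and 3.66% of all genes. The genes GRMZM2G054803, tps1, tps6 and AC214360.3_FG001 remained above 1, at 2.23, 1.81, 1.10 and 1.17. GRMZM2G150363 stood at -1.95. A further 8 of the genes named here had small positive ratios that became negative, among them pds1, HYD3 and violaxanthin de-epoxidase. Among members at 10 FPKM or more, 2 of 26 passed 1 and 1 passed -1, beside 6.41% and 4.36% of the 4041 genes at that level. The authors' deposited longer lists held 4 members among 380 genes listed as higher and 1 among 631 listed as lower, and these lists hold 0.959% and 1.59% of all genes. The shorter lists in the authors' deposited table held GRMZM2G054803 and tps1 as higher and GRMZM2G150363 as lower, 2 members and 1, and they take up 0.351% and 0.689% of all genes.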

How the data were processed

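RNA from 1 control and 1 treated leaf pool was sequenced. Tools named in the submitters' processing notes, without role or order, are Bowtie2 2.2.6, cutadapt 1.8.1, Cufflinks 2.2.1, Picard 1.115, TopHat2 2.1.0 and Cuffdiff. No source used here names the genome build. Per the file headers, the authors deposited 1 FPKM value per gene and library with a lower and upper bound, and 4 comparison tables with a log2 fold change, a p-value and a q-value. A test of 1 library against 1 in those tables compares the libraries, not the conditions, its fold changes need not equal those of the library tables, and their test score was not used. Left unused are 8 columns of per-sample FPKM values in the same tables.

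Both library tables were joined by gene identifier with python 3.11.15 and pandas 2.3.3. Ratios used a pseudocount of 1 FPKM and a minimum of 1 FPKM in at least 1 library, and a ratio of at least 1 or at most -1 was counted. The computation was tested on simulated data. No p-value was computed. Depth was read from the intervals, taking the upper distance as 2 times the value over the square root of the fragment number. Of the genes below 5 implied fragments, 71.7% of the control and 71.3% of the treated library came out whole within 0.01, too few for a count test. These intervals cover quantification error within 1 library and no spread among plants.

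Members, lists and roles were chosen with earlier results of these data known, and roles were placed after the descriptions were read. Named are members at 10 FPKM or more, members with a ratio beyond 1 or -1, and up to 2 members of a role that has neither. Of neighbouring lists, the 2 genes farthest from 0 at 10 FPKM or more are named. Symbols are those deposited by the authors. RefSeq assembly Zm-B73-REFERENCE-NAM-5.0 held a symbol for 63 of 133 members and was used for names only.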

Additional observations from a re-analysis of the deposited data

How the results depend on the processing

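No paired analysis was possible because each group has 1 library, and no library could be left out. The count of members above 1 was 5 as reported. It was 8 with a pseudocount of 0.1 FPKM (8.36% of all genes), 2 with a pseudocount of 5 (0.946%) and 2 with a minimum of 5 FPKM (5.19%). The count below -1 was 1, 2 with a pseudocount of 0.1 (4.04%), and 2 with GRMZM2G105644 included, an alternative chosen after seeing the data, under which the median member ratio was 0.284. The median member ratio of 0.29 was 0.35 and 0.14 with pseudocounts of 0.1 and 5. It was 0 with no minimum, 0.31 with a minimum of 5 FPKM, 0.072 after subtraction of the median of all genes, 0.062 after rescaling on the genes of middle level, and 0.51 over members whose intervals do not overlap. The other counts lay within 1.5 times. Rescaling and subtraction each ended the count of GRMZM2G346095 as above 1 and turned the sign of 8 of 34 named genes, none of them beyond 1. A pseudocount of 5 ended it for 3 low genes, and one of 0.1 added GRMZM2G088601, GRMZM2G146437 and GRMZM2G175071. Genes below 5 implied fragments, such as AC214360.3_FG001 in the control, carry the widest relative intervals.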

Other observations

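Genes listed under neighbouring isoprenoid branches by the wording of their descriptions, and not members, stood as follows in the control and treated library. The solanesyl diphosphate synthase genes, which make the side chain of plastoquinone, stood at 84.0 FPKM (79.5 to 88.5) and 127 (121 to 134) for GRMZM2G163809, and at 61.2 (58.2 to 64.2) and 72.1 (68.4 to 75.8) for GRMZM2G112728. Both pairs of intervals were apart, with ratios of 0.59 and 0.23, the latter at the median of all genes. Another gene of that description, GRMZM2G115077, chosen after its values were seen, stood at 8.16 (7.12 to 9.20) and 0.0389 (0 to 0.117). In the list of tocopherol and plastoquinone genes, 7 of 8 reached the minimum and the median ratio was 0.46. Of the 7, 1 passed 1, beside 3.71% of all genes. The wording also brought GRMZM2G060898 and petB (GRMZM2G463640) into this list, both described under the cytochrome b6f complex of electron transport. Homogentisate dioxygenase (GRMZM2G154093), which degrades the aromatic precursor of tocopherol, stood at 3.45 (2.75 to 4.14) and 11.1 (9.80 to 12.5), a ratio of 1.45. GRMZM2G060898, listed under the cytochrome b6f complex, stood at 193.5 (189.9 to 197) and 298 (293 to 303), a ratio of 0.62.

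Further terpenoid genes had 8 of 23 at the minimum, of which 2 passed 1 and 1 passed -1, beside 3.71% and 2.52% of all genes. The lowest control level among the 8 was 0.23 FPKM, so at least 1 gene reached the minimum only through the treated library and had to be higher there. The neomenthol dehydrogenase GRMZM2G168976 stood at 2.24 (1.64 to 2.85) and 12.3 (10.6 to 13.9), a ratio of 2.03, and GRMZM2G468855 of the same description at 6.87 (5.83 to 7.91) and 13.3 (11.7 to 15.0), a ratio of 0.86. GRMZM2G354909, of that description too and chosen after its values were seen, stood at 2.34 (1.78 to 2.89) and 0.46 (0.16 to 0.75), a ratio of -1.20 with intervals apart. It is the 1 gene that passed -1, reached the minimum only through the control library and so had to be lower in the treated one. GRMZM2G093526, which shares the description of tps1 and was chosen after its values were seen, stood at 78.4 (76.0 to 80.8) and 90.6 (87.7 to 93.5), a ratio of 0.21 that lay at the median of all genes. Of further prenyltransferases, GRMZM2G097283, described as the octaprenyltransferase of the phylloquinone route, stood at 15.2 (13.6 to 16.7) and 5.96 (4.92 to 7.01), a ratio of -1.22, and GRMZM2G113476 at 11.2 (10.1 to 12.4) and 9.85 (8.66 to 11.0), with overlapping intervals.

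In the sterol and squalene list 64 of 168 genes reached the minimum, with a median of 0.29. Of them 1 was above 1 and 3 below -1, beside 3.71% and 2.52% of all genes. Part of this list are genes named only for sterol binding or regulation. Cycloartenol synthase GRMZM2G023798, which closes the first sterol ring system, stood at 5.82 (5.17 to 6.48) and 10.2 (9.21 to 11.2), a ratio of 0.71. The methylsterol monooxygenase GRMZM2G127067 stood at 11.8 (10.5 to 13.0) and 6.88 (5.81 to 7.94), a ratio of -0.70. In the gibberellin list 5 of 28 genes reached the minimum, with 2 above 1 and 1 below -1, beside 3.71% and 2.52% of all genes. The 1 below -1 was at 0 FPKM in the treated library and reached the minimum only through the control. At least 1 of the 2 above 1 reached it only through the treated library. The minimum thus fixed their directions, and these counts are no measure of the list. The lowest control level among the 5 was 0.23 FPKM, below the minimum, as in the further terpenoid list, so these lists may share genes. The receptor gene named GID1B (GRMZM2G173630) stood at 8.11 (7.22 to 8.99) and 12.2 (11.0 to 13.4). Further mevalonate genes had 4 of 9 at the minimum with a median ratio of 0.29, and none passed 1 in either direction.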
